A study of Homo sapiens with 58 samples.

Results

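SOX9 is a transcription factor of cranial neural crest cells (CNCCs) and cartilage, and its gene lies in a gene desert on chromosome 17. The accessibility of the regulatory elements (REs) of that desert was followed while SOX9 itself was removed. All REs of the deposited table whose midpoint lay between positions 70,200,000 and 72,700,000 of chromosome 17 (hg38) were taken, which gave 130 of 151,457 REs. An RE is named here by the distance of its midpoint from the SOX9 start at 72,121,020 in kb, so that RE-1448 lies upstream of SOX9 and RE+502 downstream of it.

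The CNCCs came from in vitro differentiation of H9, a human embryonic stem cell line in wide use. They were profiled by ATAC-seq, an assay that inserts adapters into open chromatin with the transposase Tn5, so that reads pile up where DNA is accessible. In SOX9-tagged cells both SOX9 alleles carry FKBP12-F36V, mNeonGreen and V5 at the C terminus, and the small molecule dTAGV-1 sends the tagged protein to degradation. Tagged clones S9CC13 and S9CC47 are each 1 edited line, so a clone and its editing history cannot be told apart. Wild-type (WT) cells carry no tag. SOX9-tagged cells received 0, 0.5, 1.6, 5, 16 or 500 nM dTAGV-1 for 48 h, with 7 replicates per concentration (4 of S9CC13, 3 of S9CC47), and the labels give SOX9 levels of 100, 77.9, 51.7, 25.8, 8.14 and 0.95% in that order. WT cells received 0 or 500 nM for 48 h, with 2 samples per group. In a time course both genotypes received vehicle (DMSO) for 24 h, 500 nM for 24 h, or 500 nM for the last 3 h of that day, again with 2 samples per group. All 58 samples were passage 4 CNCCs kept in a medium with BMP2 and CHIR-99021.

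Totals ran from 22.9 to 81.0 M counts in REs per sample, and the median RE of the SOX9 window held 63.5 to 270 counts in a sample. Values are CPM, the counts of an RE divided by the TMM-scaled library size in units of 1 M counts. In the 13 samples without dTAGV-1, the promoter REs of 9 of 9 listed neural crest markers were open, with a median of 39.3 CPM per kb (27.3 to 120). The list did not hold SOX10, so it does not speak for every neural crest gene. The SOX10 promoter RE held 1.64 ± 0.458 CPM (SD) in SOX9-tagged cells of the dose series without dTAGV-1. The lowest mean of a listed marker was 19.7 CPM, at TFAP2B. The promoter REs of 4 pluripotency genes had a median of 5.38 CPM per kb, from 2.35 at POU5F1 to 27.4 at LIN28A, those of 4 neural progenitor genes 11.2 (highest 20.5, SOX2), and those of 3 melanocyte and glia genes 6.29 (highest 47.03, MITF). Bulk counts cannot tell fewer cells with an open RE from less opening in each cell.

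SOX9 binds DNA through its HMG box, which recognizes short cores such as ACAATG and ACAAAG, and it often binds as a dimer at a pair of cores that face each other. Its own gene is controlled from far away. Enhancer clusters in the upstream desert are named EC1.45, EC1.35 and EC1.25 for their distance in Mb. Enhancers there drive SOX9 in the developing face, and deletions and breakpoints of this far upstream region are linked to Pierre Robin sequence, with a small lower jaw. Nearer to the gene lies a region with testis enhancers, and in the developing testis SOX9 is known to sustain the activity of its own gene. The window also holds long noncoding RNA genes, among them LINC00511 (72,290,091 to 72,640,472, minus strand) and SOX9-AS1, and, besides SOX9, a single protein-coding gene, SLC39A11, a zinc transporter whose 3′ part reaches into the window.

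The REs with the largest decrease on SOX9 removal are shown first, because the results turn on them. The sequences are of the hg38 plus strand, 5′ to 3′, and capitals mark the core ACAATG or ACAAAG on either strand (CATTGT or CTTTGT on the plus strand). RE+502 is shown with 300 of its bases and the others with 150.
RE+502, chr17:72623043-72623342: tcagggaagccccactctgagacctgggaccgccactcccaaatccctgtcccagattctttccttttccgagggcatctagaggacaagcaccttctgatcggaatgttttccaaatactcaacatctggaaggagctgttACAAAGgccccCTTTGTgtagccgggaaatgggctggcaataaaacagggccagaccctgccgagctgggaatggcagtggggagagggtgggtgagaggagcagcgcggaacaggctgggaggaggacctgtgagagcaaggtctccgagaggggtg
RE+451, chr17:72571911-72572060: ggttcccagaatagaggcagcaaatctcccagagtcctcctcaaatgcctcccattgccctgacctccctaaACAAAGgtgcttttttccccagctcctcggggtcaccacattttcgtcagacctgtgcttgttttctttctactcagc
RE+494, chr17:72614974-72615123: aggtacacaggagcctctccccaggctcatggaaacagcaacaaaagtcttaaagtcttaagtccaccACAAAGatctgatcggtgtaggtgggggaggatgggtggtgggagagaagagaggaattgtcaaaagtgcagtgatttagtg
RE+541, chr17:72661472-72661621: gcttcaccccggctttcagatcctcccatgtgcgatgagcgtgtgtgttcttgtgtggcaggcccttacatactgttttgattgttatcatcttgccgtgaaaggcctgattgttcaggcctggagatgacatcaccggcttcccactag
RE+503, chr17:72623607-72623756: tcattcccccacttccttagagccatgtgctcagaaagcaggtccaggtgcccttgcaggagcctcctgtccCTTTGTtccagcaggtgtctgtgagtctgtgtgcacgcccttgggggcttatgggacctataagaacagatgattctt
RE+502 held the only facing pair of these cores among the 130 REs, ACAAAGgccccCTTTGT at chr17:72623185-72623201, in which a core is followed after 5 bases by the reverse complement of a core (gaps of 3 to 5 bases were searched). Such a pair was found in 1 of 130 REs of the window (0.769%) and in 328 of all 151,457 REs (0.217%). With the shorter cores CAATG and CAAAG, 4 of 130 (3.08%) held a pair, against 1.21% of all REs. At least 1 core was found in 73 of the 130 REs (56.2%), against 49.6% of all REs. Among the REs of the window that fell at 500 nM, 15 of 20 held a core, against 24 of 46 that rose and 34 of 64 that did neither. These REs are not of equal length, and a match describes the letters and is not a bound site.

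Upon full depletion for 48 h the REs around SOX9 changed in both directions. At 500 nM against 0 nM, 20 of 130 REs fell (15.4%, against 13.9% of all REs) and 46 rose (35.4%, against 10.2% of all REs), while 64 did not pass the threshold. Of all REs 24.1% passed in either direction (edgeR quasi-likelihood test with differentiation batch as covariate, adjusted p under 0.05 over all 151,457 REs). The share that fell was thus near the background, and the share that rose was above it. The median log2 fold change of the 130 REs was 0.17, against 0.018 over all REs. The decreases were the larger changes. The REs that fell had a median log2 fold change of -1.03 (-4.28 to -0.39), against -0.66 for all REs that fell, and 10 of them changed by more than 2-fold (3.88% of all REs did). The REs that rose had a median of 0.63 (0.16 to 1.56), against 0.55 for all that rose, and 3 of them changed by more than 2-fold (0.608% of all REs did). Without dTAGV-1, the REs that fell were more open per length (median 12.1 CPM per kb) than those that rose (5.38) or did neither (4.41). The calls use the same samples at 0 nM, so these levels are not independent of them. The 7 samples at 0 nM and the 7 at 500 nM did not overlap for 10 of the REs that fell (3.35% of all REs fell without overlap) and for 3 that rose (0.668% of all REs).

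The 2 directions lay in different places. Of the 20 REs that fell, 15 lay between 439 and 579 kb downstream of SOX9, among the 19 REs at 430 kb and beyond, and no RE there rose. Of the 28 downstream REs between 100 and 430 kb, none fell and 15 rose. This split of the downstream side was chosen after the values were seen. Over all REs 13.9% fell and 10.2% rose. Within LINC00511, a noncoding RNA gene that spans the split, 14 of the 25 REs on the side of SOX9 rose, and 9 of the 12 REs on the far side fell. In SLC39A11, 6 of 7 REs fell. The other 5 REs that fell were RE-1888, RE-1466.4, RE-1316 and RE-1133 upstream and RE+65 downstream.

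**Figure D1:**
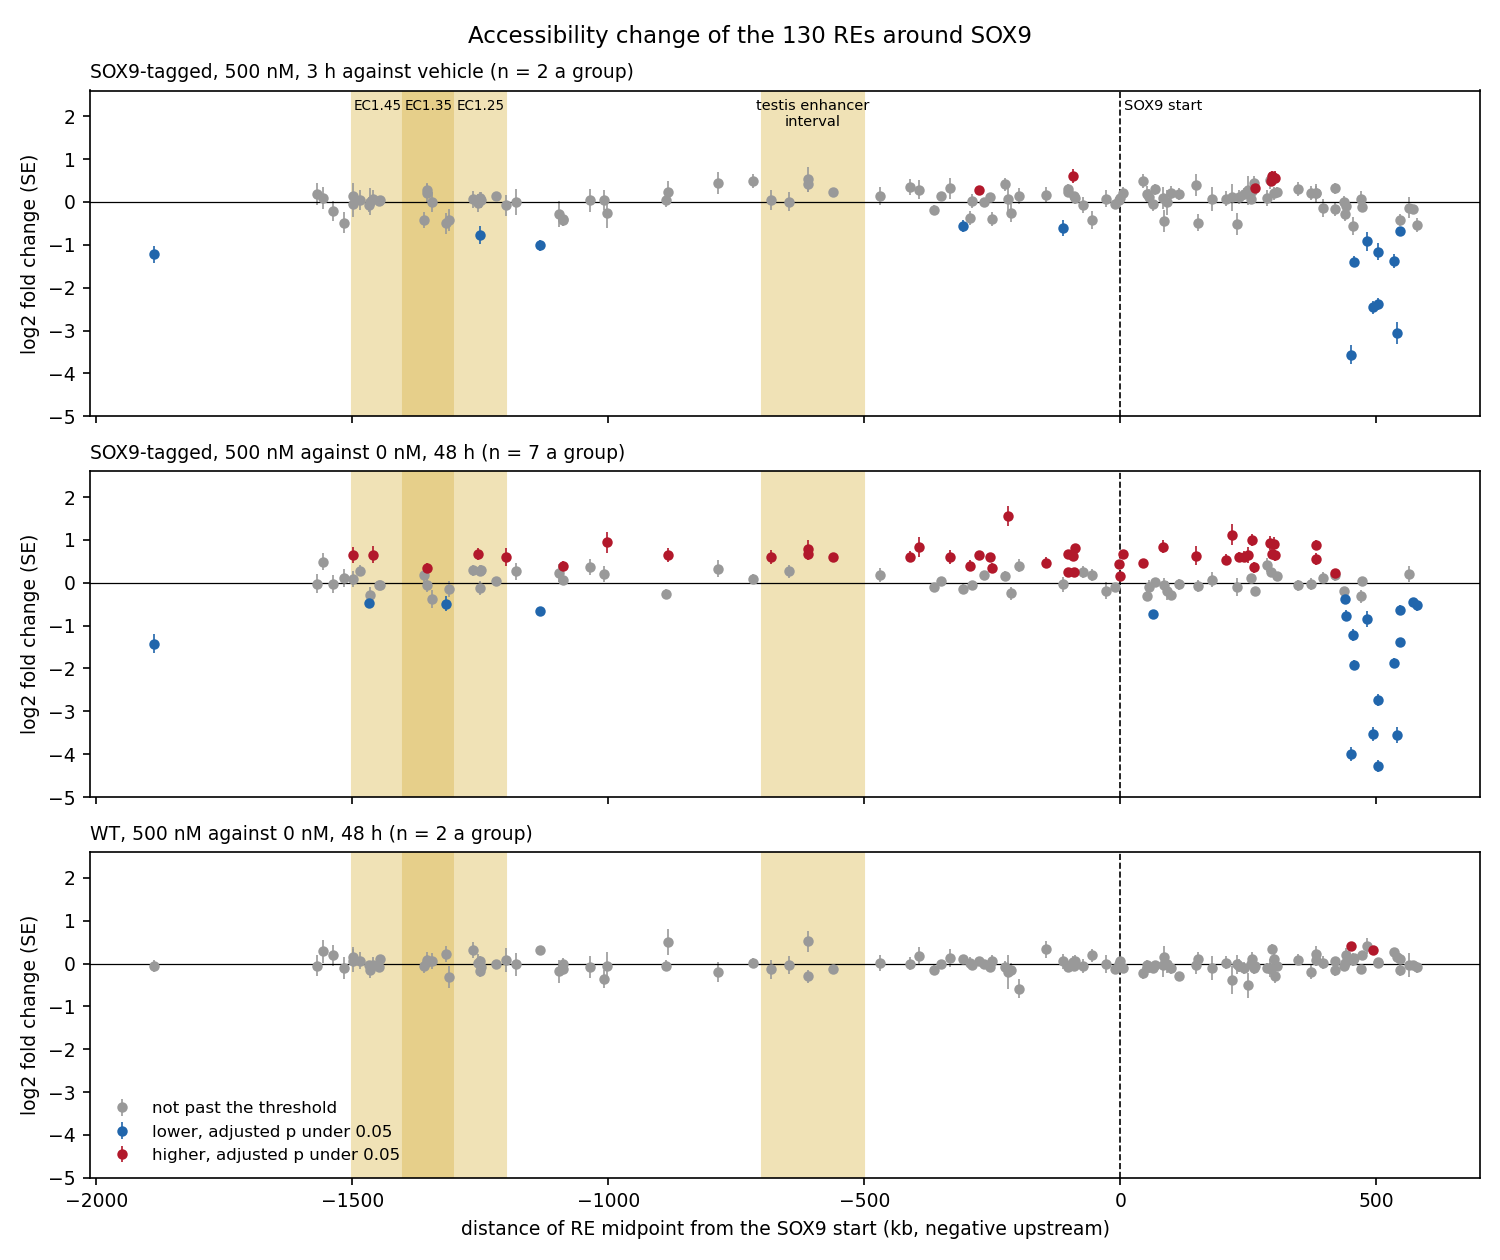
Log2 fold change (y axis, bars ± SE) of each of the 130 REs against the distance of its midpoint from the SOX9 start in kb (x axis), in SOX9-tagged cells after 3 h (top, 2 samples a group) and 48 h (middle, 7 a group) of 500 nM dTAGV-1 and in WT cells after 48 h (bottom, 2 a group), with the enhancer cluster zones and the testis enhancer interval shaded. Blue points fell and red points rose with an adjusted p under 0.05, and the blue points cluster between 439 and 579 kb downstream at both times but not in WT cells.

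The lowest log2 fold change of the window at 500 nM and 48 h was that of RE+502 (72,622,968 to 72,623,468), in an intron of LINC00511. Its accessibility at 0 nM was 16.2 ± 5.56 CPM (SD, n = 7), with samples from 8.94 to 22.7 and a median of 18.8. At 500 nM it was 0.841 ± 0.225 CPM (0.646 to 1.202, median 0.727), so that the highest treated sample lay far below the lowest untreated one. The log2 fold change was -4.28 ± 0.14 (SE, adjusted p = 5.1e-17 by edgeR). RE+503, whose edge lies 27 bp from that of RE+502, fell less, from 8.19 ± 4.54 to 1.21 ± 0.516 CPM (n = 7, log2 fold change -2.73 ± 0.14). Neighbouring REs may share fragments, so this pair is not independent.

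RE+451 (72,571,888 to 72,572,388, LINC00511 intron) was nearly closed without SOX9. Its level went from 7.48 ± 3.45 CPM (3.35 to 12.8, median 6.92, n = 7) to 0.483 ± 0.212 CPM (0.293 to 0.906, median 0.454), so its log2 fold change was -4.00 ± 0.17 (edgeR adjusted p = 7.6e-15). RE+494 (72,614,974 to 72,615,769, LINC00511 exon) started higher, at 20.4 ± 7.12 CPM (10.9 to 29.1, median 18.9), and reached 1.75 ± 0.288 CPM (1.33 to 2.23, median 1.76), a log2 fold change of -3.53 ± 0.17. RE+541 (72,661,297 to 72,661,797, SLC39A11 intron) had no ACAATG or ACAAAG core and fell as far, from 4.59 ± 1.57 CPM (2.54 to 6.85, median 4.75) to 0.407 ± 0.256 CPM (0.180 to 0.942, median 0.350). Its log2 fold change was -3.55 ± 0.19 (edgeR adjusted p = 2.4e-13). At 500 nM the lowest count in a sample was 4 for RE+541, 7 for RE+451 and 21 for RE+502. For these 3 REs, as for RE+502, the untreated and fully depleted samples did not overlap.

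Further REs of the same stretch fell by less, and those named here were chosen after their values were seen. RE+456 (LINC00511 intron), among the most open of the window at 48.6 CPM per kb, went from 24.4 ± 8.22 to 6.36 ± 1.43 CPM (n = 7, log2 fold change -1.91 ± 0.10, edgeR adjusted p = 2e-13). RE+535 had a log2 fold change of -1.87 ± 0.12. RE+545, in SLC39A11, went from 27.2 ± 6.06 to 10.6 ± 2.95 CPM, a log2 fold change of -1.38 ± 0.09. The remaining REs of the stretch that fell had log2 fold changes between -1.21 (RE+455) and -0.39 (RE+439). The 4 that did not pass were RE+436 (-0.19), RE+471 (-0.32), RE+472 (0.03) and RE+563 (0.21).

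Summed over the 19 REs at 430 kb and beyond, accessibility at 500 nM was 0.438 ± 0.107 of that at 0 nM (SD of 7 replicate ratios), below 1 in 7 of 7 replicates. The cut at 430 kb was chosen after these values were seen, so the ratio is a description. The ratio lay between 0.515 and 0.582 in replicates S9CC13_R10, S9CC13_R13 and S9CC13_R14, and between 0.339 and 0.361 in S9CC13_R6, S9CC47_R5, S9CC47_R6 and S9CC47_R8. The summed level at 0 nM was 141 to 159 CPM in the first 3 and 199 to 227 CPM in the other 4, while at 500 nM all 7 lay between 70.4 and 87.1 CPM. Clone S9CC13 was in both sets, and all S9CC47 replicates were in the second. The first set was of differentiation batches R10, R13 and R14 and the second of batches R5, R6 and R8, with no batch in both. This split of replicates was not tested.

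The RE at the SOX9 start (72,119,993 to 72,121,187), which covers the start site of SOX9 and an exon of SOX9-AS1, was the only RE within 1 kb of a protein-coding start in the window. It did not close when SOX9 was removed. Its level was 44.3 ± 4.96 CPM (37.7 to 52.4, median 43.7, n = 7) in untreated and 49.7 ± 4.13 CPM (43.1 to 54.7, median 51.1) in fully depleted samples. The groups overlapped, but within replicates the value was higher at 500 nM in 7 of 7, and the log2 fold change of 0.16 ± 0.05 (95% interval 0.06 to 0.27) had an edgeR adjusted p of 0.021. Without the batch covariate the adjusted p was 0.28. At the 4 lower doses the mean level was 43.3, 44.5, 46.0 and 46.8 CPM (0.5, 1.6, 5 and 16 nM), each within the SD at 0 nM. ATAC-seq counts do not give the level of the SOX9 transcript. The study also profiled RNA over its SOX9 dosages, and those data were not used here.

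**Figure D2:**
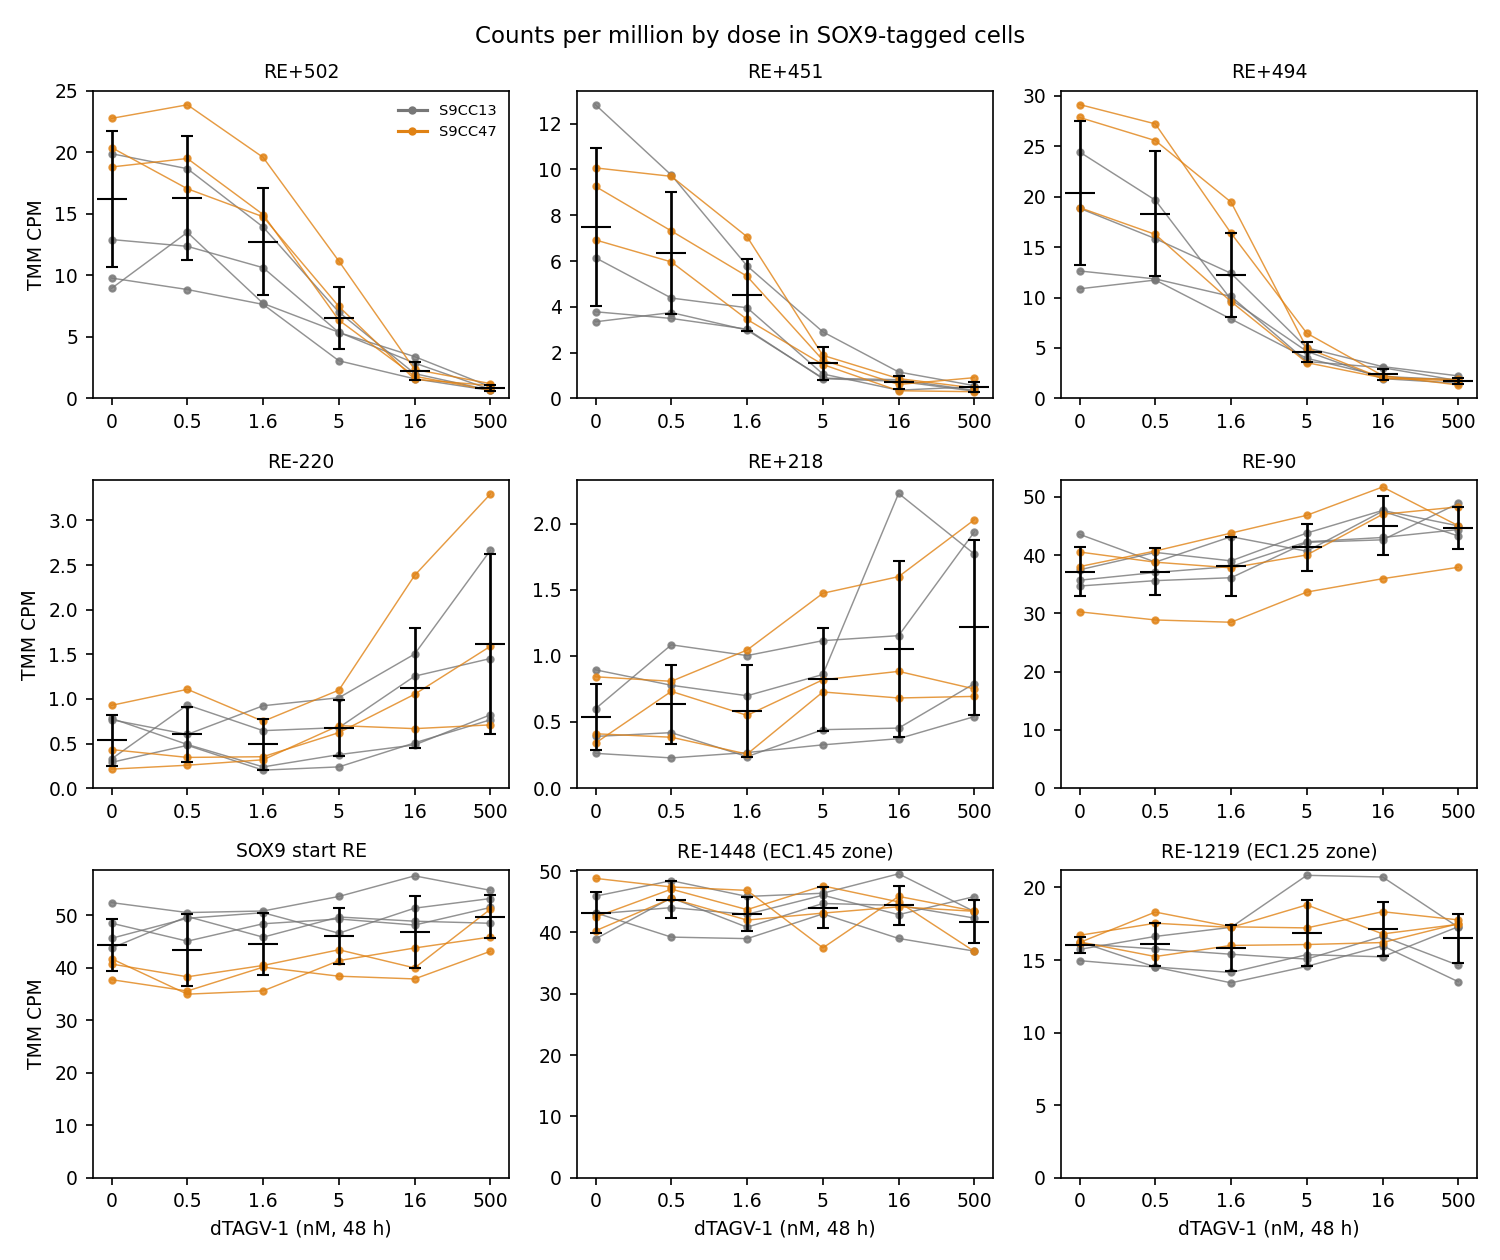
TMM CPM (y axes, from 0) against the dTAGV-1 concentration in nM (x axes, evenly spaced) in SOX9-tagged cells after 48 h for 9 REs, with 1 line per replicate coloured by clone and black marks for mean ± SD (n = 7). RE+502, RE+451 and RE+494 fall toward 0 by 16 nM, RE-220 and RE+218 rise from low levels with wide spread, RE-90 rises slightly, and the SOX9 start RE, RE-1448 and RE-1219 stay near their starting level.

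Near the gene, gains prevailed. Of the 19 REs within 100 kb of the SOX9 start, 8 rose and 1 fell at 500 nM (10.2 and 13.9% of all REs). RE-90 (72,030,362 to 72,030,862), in exons of the noncoding RNA genes ROCR and LINC01152, was the most open RE of the window per length at 74.2 CPM per kb. It rose from 37.2 ± 4.26 CPM (30.3 to 43.6, median 37.5) to 44.7 ± 3.62 CPM (37.9 to 48.9, median 45.0), with a log2 fold change of 0.26 ± 0.06 SE (edgeR adjusted p = 0.0019, or 0.057 without the batch covariate, higher in 6 of 7 replicates). RE-90 was also higher at 16 nM (0.28 ± 0.06). The REs that follow were chosen after their values were seen. RE+6, just past the end of SOX9, rose from 12.1 ± 3.21 to 18.9 ± 3.34 CPM (n = 7, log2 fold change 0.67 ± 0.08, edgeR adjusted p = 7.1e-07). RE-89, in an intron of ROCR and LINC01152, rose by 0.80 ± 0.10 on the log2 scale. The exception was RE+65, in an exon of SOX9-AS1, which fell from 10.4 ± 2.75 to 6.38 ± 2.29 CPM (log2 fold change -0.73 ± 0.10, edgeR adjusted p = 2.8e-06). RE-9, second in openness per length at 49.9 CPM per kb, had a log2 fold change of -0.10 ± 0.07 and did not pass.

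In the EC1.45 and EC1.25 zones the most open RE did not pass the threshold, and in the EC1.35 zone it rose. RE-1448 (70,672,114 to 70,673,022), the most open RE of the EC1.45 zone and of the upstream desert beyond 1 Mb, held 43.2 ± 3.32 CPM (39.0 to 48.8, median 43.0, n = 7) at 0 nM. It held 41.8 ± 3.47 CPM (36.9 to 45.9, median 43.4) at 500 nM, and the samples overlapped. Its log2 fold change, -0.06 ± 0.06, had a 95% interval of -0.18 to 0.07. RE-1219 (70,901,724 to 70,902,224), the most open RE of the EC1.25 zone, stood at 16.03 ± 0.552 CPM without dTAGV-1 and at 16.5 ± 1.69 CPM with 500 nM, a log2 fold change of 0.03 ± 0.07 (95% interval -0.11 to 0.18). A missed threshold does not show equal levels, and these intervals bound the change.

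Of 8 REs in the EC1.45 zone, 1 fell and 2 rose, of 6 in the EC1.35 zone, 1 fell and 1 rose, and of 6 in the EC1.25 zone, 1 rose. Over all REs 13.9% fell and 10.2% rose, and nothing particular to the clusters is read from these few calls. RE-1466.4 (70,654,156 to 70,655,124, EC1.45 zone) fell from 4.30 ± 1.81 CPM (1.58 to 7.52, median 4.52) to 3.15 ± 1.451 CPM (1.21 to 5.90, median 2.88), lower in 7 of 7 replicates. Its log2 fold change was -0.47 ± 0.12 (edgeR adjusted p = 0.0035, or 0.45 without the batch covariate) and that at 16 nM was 0.04. RE-1353.6 (70,767,143 to 70,767,643), the most open RE of the EC1.35 zone, rose from 2.73 ± 0.319 to 3.49 ± 0.653 CPM (n = 7, log2 fold change 0.35 ± 0.12, edgeR adjusted p = 0.039). That call was lost without S9CC13_R14 (adjusted p = 0.081), without S9CC47_R5 (0.063) or without S9CC47_R8 (0.14), where edgeR gave log2 fold changes of 0.34, 0.36 and 0.30. RE-1255 (70,865,981 to 70,866,481, EC1.25 zone) rose from 1.87 ± 0.670 to 2.95 ± 0.824 CPM, higher in 7 of 7 replicates (log2 fold change 0.67 ± 0.14, edgeR adjusted p = 0.00086, or 0.07 without the batch covariate). Summed over a zone, the ratio of 500 nM to 0 nM was 0.983 ± 0.0793 in EC1.45, 1.02 ± 0.110 in EC1.35 and 1.11 ± 0.0621 in EC1.25 (SD of 7 replicate ratios), and only in EC1.25 was it above 1 in 7 of 7 replicates. These zone bounds are distances of 1,500 to 1,400, 1,400 to 1,300 and 1,300 to 1,200 kb and not edges of single enhancers. Most of the EC1.45 sum came from RE-1448 and RE-1446, at 43.2 and 14.4 CPM at 0 nM, and no other RE there held over 4.30 CPM.

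The remaining REs of the clusters were weakly open, at 1.5 to 7.17 CPM per kb, apart from RE-1446. RE-1446, the neighbour of RE-1448 at 28.8 CPM per kb, had a log2 fold change of -0.05 ± 0.07. In the EC1.45 zone RE-1499 (0.64 ± 0.19) and RE-1459 (0.65 ± 0.20) were the REs that rose, and they were chosen after their values were seen. In the EC1.35 zone RE-1316 fell by 0.49 on the log2 scale (SE 0.18, edgeR adjusted p = 0.042). The EC1.25 zone held RE-1263, RE-1249.5 and RE-1248.7, with log2 fold changes of 0.29, 0.28 and 0.29 that did not pass.

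Beyond the clusters lay RE-1888 and RE-1133, chosen after their values were seen, and both fell. RE-1888, the first RE of the window, went from 2.73 ± 1.32 CPM (1.447 to 5.19, median 2.27) to 1.01 ± 0.307 CPM (0.654 to 1.44, median 1.01), and its groups did not overlap (log2 fold change -1.42 ± 0.22, edgeR adjusted p = 2e-05). RE-1133, in the desert between EC1.25 and the testis enhancers, went from 13.2 ± 3.20 to 8.57 ± 2.395 CPM (log2 fold change -0.65 ± 0.09, edgeR adjusted p = 8.5e-06).

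The interval from 700 to 500 kb upstream, where the testis enhancers lie, had the highest ratio of summed CPM at 500 nM to 0 nM of all zones. Of its 5 REs, 4 rose and none fell (10.2 and 13.9% of all REs). Its summed ratio of 500 nM to 0 nM was 1.54 ± 0.223 (SD, n = 7), above 1 in 7 of 7 replicates. RE-562 (71,558,856 to 71,559,703), its most open RE, chosen after its values were seen, went from 17.8 ± 2.37 CPM (15.1 to 21.3, median 17.4) to 27.3 ± 2.80 CPM (24.8 to 31.7, median 26.3) in the fully depleted samples. The groups did not overlap, and the log2 fold change was 0.61 ± 0.08 (edgeR adjusted p = 1.9e-06). RE-562 held most of the summed CPM of the interval, since no other RE there held over 2.66 CPM at 0 nM. The other 3 that rose were RE-610 (0.78 ± 0.21), RE-609 (0.66 ± 0.13) and RE-682 (0.60 ± 0.16), while RE-648 (0.27 ± 0.15) did not pass. In the desert from 500 to 100 kb upstream 11 of 21 REs rose and none fell, with a summed ratio between 1.09 and 1.37 over the 7 replicates. In the 500 kb above the testis interval, 4 of 13 rose and 1 fell, and the summed ratio was 0.993 ± 0.0835.

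Several gains of the desert and of the SOX9 flanks were at well-filled REs, and those in this paragraph were chosen after their values were seen. RE-254 went from 16.5 ± 5.31 CPM (10.2 to 23.4, median 14.8, n = 7) at 0 nM to 24.0 ± 8.04 at 5 nM, 27.6 ± 9.18 at 16 nM and 25.1 ± 8.64 CPM at 500 nM (12.3 to 35.6, median 23.7). Its log2 fold change was larger at 16 nM (0.74 ± 0.07) than at 500 nM (0.59 ± 0.08), by less than the spread of its samples. RE-102, 102 kb upstream, rose from 10.4 ± 2.99 to 16.5 ± 3.92 CPM (log2 fold change 0.68 ± 0.08, edgeR adjusted p = 4.2e-07). Only RE-883, RE+83.8 and RE-562 rose without overlap of the groups. RE+83.8 went from 1.09 ± 0.228 CPM (0.773 to 1.51) to 1.96 ± 0.329 CPM (1.59 to 2.50), and RE-883 from 0.750 ± 0.149 CPM (0.586 to 0.920) to 1.18 ± 0.242 CPM (0.980 to 1.59).

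The largest gains by fold, at RE-220 and RE+218, were at REs that were nearly closed without dTAGV-1. RE-220 (71,900,733 to 71,901,233, intergenic) went from 0.534 ± 0.285 CPM (0.213 to 0.928, median 0.432) to 1.61 ± 1.01 CPM (0.709 to 3.30, median 1.453). The groups overlapped, and the log2 fold change was 1.56 ± 0.23 (edgeR adjusted p = 1.2e-05). RE+218 (72,339,034 to 72,339,534, LINC00511 exon) went from 0.534 ± 0.25 to 1.22 ± 0.660 CPM (log2 fold change 1.12 ± 0.24, edgeR adjusted p = 0.00091). RE+258 (72,378,595 to 72,379,095, LINC00511 intron) was better filled, at 4.31 ± 2.04 CPM (1.57 to 7.38, median 3.41), and rose to 8.33 ± 2.75 CPM (3.82 to 11.7, median 7.34), so that the log2 change was 1.00 ± 0.14 (edgeR adjusted p = 3.9e-06). RE-1003, in an intron of the noncoding RNA gene CASC17, and RE+292, in an intron of LINC00511, rose by 0.94 ± 0.25 and 0.93 ± 0.16 on the log2 scale, and without the batch covariate RE-1003 did not pass (edgeR adjusted p = 0.12). The folds of RE-220, RE+218 and RE-1003 rest on few reads, since their lowest counts at 0 nM were 11, 10 and 7. RE+218 had 4 counts in a WT vehicle sample.

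**Figure D3:**
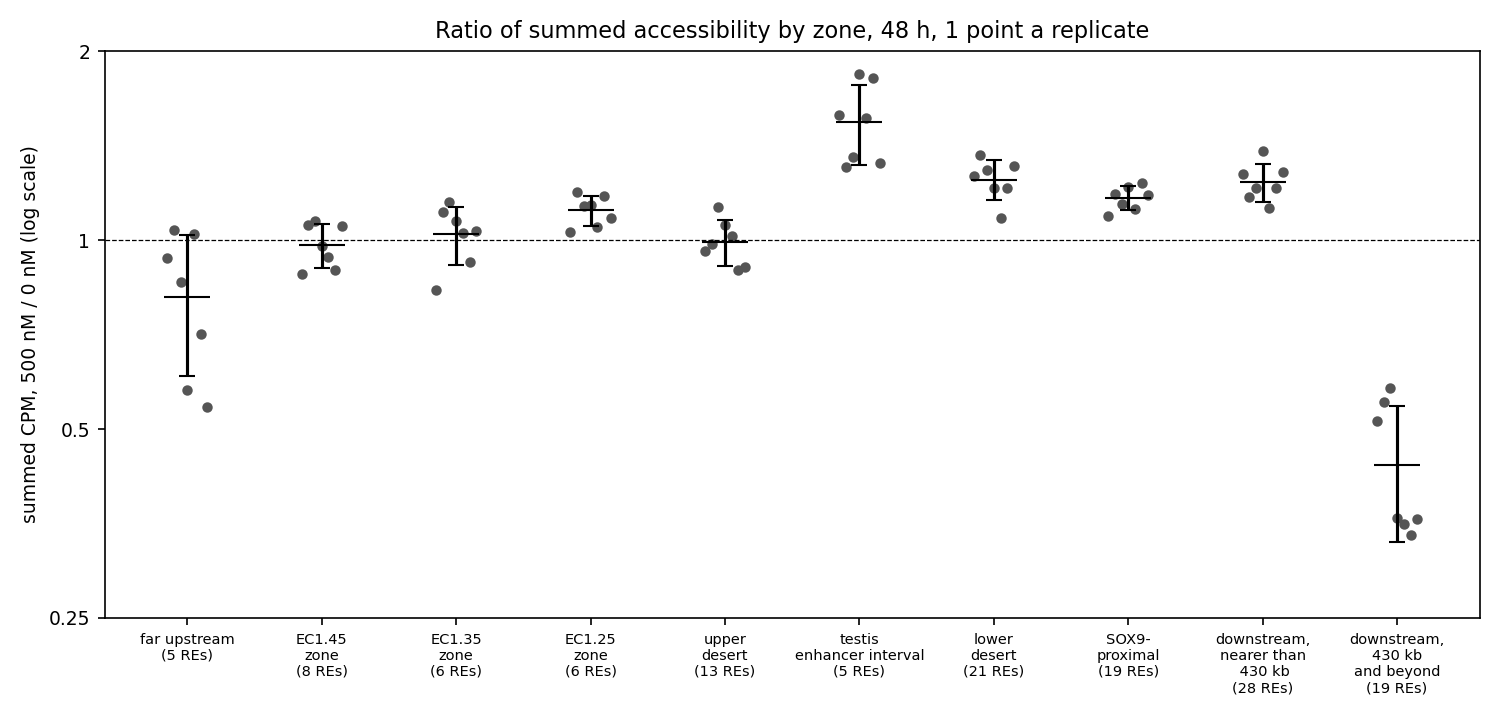
Ratio of summed CPM at 500 nM to that at 0 nM after 48 h (y axis, log scale) for each zone of the window (x axis, upstream to downstream, with the number of REs), with 1 point per replicate and black marks for mean ± SD of the 7 ratios. All 7 replicates lie above 1 in the EC1.25 zone, the testis enhancer interval, the lower desert, the SOX9-proximal zone and the nearer downstream zone, and all 7 lie below 1 at 430 kb and beyond. The cut of the downstream side at 430 kb was chosen after these values were seen.

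The response was graded with dose. At 0.5 nM none of the 130 REs passed the threshold of the edgeR test (0% of all REs passed), 6 had an unadjusted p under 0.05, and DESeq2 also called none. At 1.6 nM, with 51.7% of SOX9 left by the labels, 2 REs fell (0.0383% of all REs) and none rose (0% of all), and DESeq2 called 6, all lower. At 5 nM 13 fell (4.24% of all REs) and 5 rose (1.08%), so that 18 passed (5.32% of all). At 16 nM 18 fell (9.12%) and 39 rose (7.12%), against 16.2% of all in either direction. When each replicate was its own block, 10 REs passed at 1.6 nM (8 lower and 2 higher) and 32 at 5 nM (14 lower and 18 higher). Leaving out each replicate in turn gave 0 to 6 REs at 1.6 nM and 11 to 42 at 5 nM by edgeR. No share of all REs is given beside the counts from DESeq2, the replicate block or the left-out replicates. The 5 doses share their control samples.

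RE+451 and RE+494 were the REs that fell at 1.6 nM. RE+451 went from 7.48 ± 3.45 to 4.51 ± 1.57 CPM at 1.6 nM (log2 fold change -0.68 ± 0.11, edgeR adjusted p = 0.034, lower in 7 of 7 replicates), with overlapping groups. RE+494 went from 20.4 ± 7.12 to 12.2 ± 4.20 CPM (log2 fold change -0.70 ± 0.11, edgeR adjusted p = 0.034). RE+502, with the larger change at 500 nM, had a log2 fold change of -0.34 at 1.6 nM and did not pass (edgeR adjusted p = 0.062, lower in 7 of 7 replicates). At 5 nM the mean levels were 1.54 ± 0.721 CPM for RE+451, 4.62 ± 1.02 for RE+494 and 6.53 ± 2.49 for RE+502. The samples at 5 nM no longer overlapped those at 0 nM for RE+451 and RE+494, and still did for RE+502.

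As a share of the log2 change at 500 nM, RE+451 had reached 17.0% at 1.6 nM, 56.5% at 5 nM and 85.6% at 16 nM, and RE+494 19.9%, 59.2% and 86.8%. RE+502 had reached 7.90%, 30.6% and 66.6%, and its neighbour RE+503 9.96%, 36.7% and 73.3%. RE+541 lay with the first pair, at 16.7%, 53.0% and 77.5%. Over the 16 REs of the window that fell with a log2 change of at least 0.5 in size, the median shares at 0.5, 1.6, 5 and 16 nM were 2.84, 17.4, 53.1 and 77.8%, against 2.85, 14.3, 43.0 and 70.4% over all 14,690 such REs. Over the 34 that rose by at least 0.5 they were 8.09, 16.6, 50.8 and 82.6%, against 10.2, 18.7, 44.5 and 75.6% over all 9,205. The doses share their controls, so these shares are descriptions with no test. Among single gains, RE-562 rose already at 5 nM (0.31 ± 0.07, edgeR adjusted p = 0.015), as did RE+6 (0.34 ± 0.08, adjusted p = 0.015 by edgeR) and RE-254 (0.54 ± 0.07). RE-220 had not at 5 nM (0.40 ± 0.28) and did so at 16 nM (1.06 ± 0.25).

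In the time course losses passed the threshold sooner than gains. After 3 h of 500 nM 14 REs of the window fell (7.43% of all REs) and 6 rose (0.912%, or 8.34% of all in either direction). After 24 h 17 fell (9.93%) and 21 rose (4.7%, or 14.6% in either direction). Both times were compared with the same 2 vehicle samples. With either tagged replicate left out, fewer REs passed at each time. Those fits also held the WT samples and left 1 tagged sample per group, so the model changed along with the samples. At 3 h 9 of the 14 decreases lay at 430 kb and beyond, as did 13 of 17 at 24 h. Of the 20 REs that fell at 48 h, 11 had fallen at 3 h and 15 at 24 h, against 43.3 and 60.1% of all REs that fell at 48 h. Of the 46 that rose at 48 h, 4 had risen at 3 h and 18 at 24 h, against 1.61 and 26.2% of all. The 48-h calls come from other samples, with 7 rather than 2 per group, so the counts of calls do not rest on equal numbers of samples. The sign was the same at 3 h for 20 of the 20 losses and for 40 of the 46 gains. The median log2 fold change of these losses was -0.80 at 3 h and -1.27 at 24 h, and that of the gains 0.21 and 0.46. Losses were larger changes at more open REs, so counts of calls do not compare the speed of losses and gains.

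RE+451 had most of its loss within 3 h. The vehicle samples held 17.0 and 9.07 CPM, the 3-h samples 1.33 and 0.923 CPM, and the 24-h samples 0.372 and 0.608 CPM. The log2 fold change was -3.56 ± 0.23 at 3 h (edgeR adjusted p = 3e-09) and -4.77 at 24 h. RE+502 went more slowly, from 29.0 and 12.8 CPM in vehicle to 6.26 and 2.32 CPM at 3 h and 2.08 and 1.44 CPM at 24 h (log2 fold changes -2.38 ± 0.15 and -3.58). RE+494 went from 46.3 and 20.6 CPM to 7.51 and 4.70 CPM at 3 h and 3.88 and 3.19 CPM at 24 h, and was at -2.46 ± 0.15 on the log2 scale at 3 h. RE+503 lagged behind RE+502, with a log2 fold change of -1.16 ± 0.20 at 3 h and -2.22 at 24 h. Within each batch the treated sample lay below its vehicle sample for RE+451, RE+494 and RE+502 at both times.

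Gains took longer to pass. RE+258 held 2.19 and 4.98 CPM in vehicle, 2.80 and 6.12 CPM at 3 h and 3.91 and 8.79 CPM at 24 h, with log2 fold changes of 0.26 ± 0.16 and 0.77 ± 0.15 (the second with an edgeR adjusted p of 0.0014). RE-254 stood at 22.1 and 37.5 CPM in vehicle, 25.8 and 41.3 CPM at 3 h and 38.8 and 46.3 CPM at 24 h (0.11 ± 0.10 and 0.50 ± 0.10). In the testis enhancer interval RE-610 (0.92) and RE-609 (0.71) rose at 24 h, while RE-562 had 0.23 ± 0.10 at 3 h and 0.28 ± 0.10 at 24 h and did not pass. RE-93, in an intron of ROCR, was among the few gains at 3 h, from 2.87 and 3.49 CPM to 4.18 and 6.08 CPM (0.61 ± 0.16, edgeR adjusted p = 0.02). Its difference from WT cells at 3 h was 0.12 ± 0.26 and did not pass.

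Away from the far downstream stretch, RE-1888 (-1.22 ± 0.20) and RE-1133 (-1.01 ± 0.13) fell at 3 h. RE-1133 stood at 20.2 and 26.6 CPM in vehicle and at 11.8 and 12.5 CPM at 3 h. A further 3 REs fell at 3 h and did not pass at 48 h, and they were chosen after their values were seen. RE-307, 307 kb upstream, held 11.7 and 20.9 CPM in vehicle and 10.0 and 12.2 CPM at 3 h, with log2 fold changes of -0.56 ± 0.13 at 3 h, -0.45 ± 0.13 at 24 h and -0.14 ± 0.10 at 48 h. RE-1251, in the EC1.25 zone, had -0.78 ± 0.21 at 3 h, -0.60 ± 0.21 at 24 h and -0.13 ± 0.16 at 48 h. RE-112 had -0.61 ± 0.18, -0.52 ± 0.18 and -0.04 ± 0.18. RE+262, in an exon of LINC00511, rose at 3 h (0.32 ± 0.09) and 24 h (0.46 ± 0.09) and had -0.19 ± 0.08 at 48 h. No test compared the times, which come from different sets of samples. The SOX9 start RE stood at 33.1 and 30.8 CPM in vehicle, 35.3 and 36.2 CPM at 3 h and 34.6 and 37.1 CPM at 24 h, with log2 fold changes of 0.10 and 0.11 that did not pass. In the EC1.45 zone the log2 fold changes at 3 h ran from -0.06 to 0.14 and in the EC1.35 zone from -0.50 to 0.28, and none passed by edgeR.

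**Figure D4:**
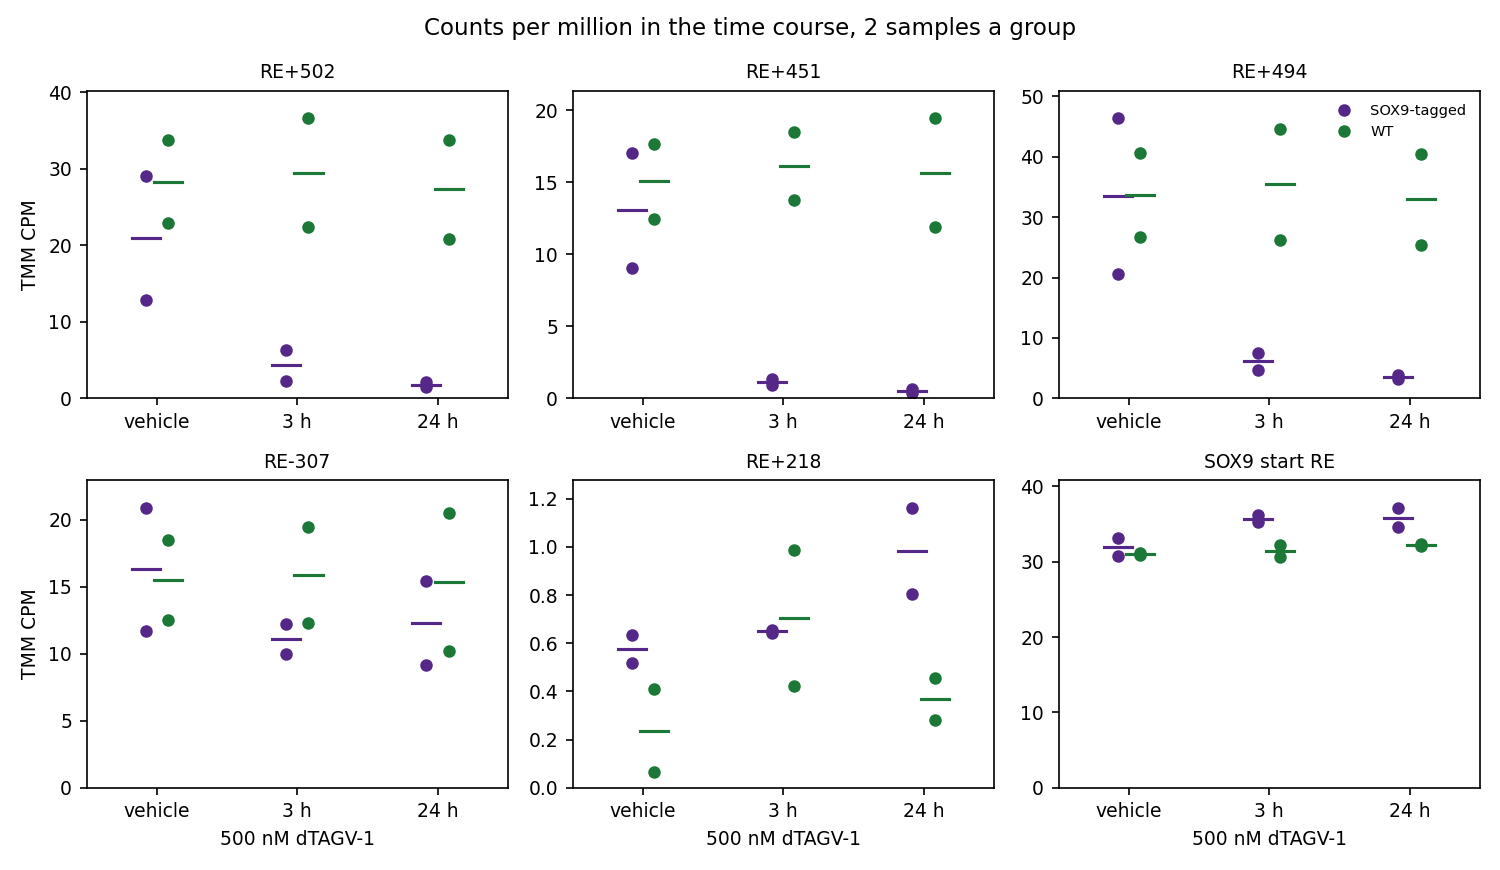
TMM CPM (y axes, from 0) in the time course for 6 REs, with 1 point per sample, a bar at the mean of the 2 samples, SOX9-tagged cells in purple and WT cells in green, for vehicle, 3 h and 24 h of 500 nM dTAGV-1 (x axes). In SOX9-tagged cells RE+502, RE+451 and RE+494 are far below vehicle by 3 h while the WT samples are not, and the SOX9 start RE stays between 30.8 and 37.1 CPM in tagged cells.

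Untagged cells showed what dTAGV-1 does without its target. In WT cells 2 REs of the window rose at 48 h (0.158% of all REs) and none fell (0.145%, or 0.303% of all in either direction, with DESeq2 calling 0 in either direction and 10 REs at an unadjusted p under 0.05 by edgeR). These were RE+451, from 4.99 and 12.8 CPM to 8.19 and 14.2 CPM (log2 fold change 0.40 ± 0.10, edgeR adjusted p = 0.048), and RE+494, from 19.8 and 19.9 CPM to 27.1 and 22.8 CPM (0.32 ± 0.08, adjusted p = 0.026 by edgeR). Both are opposite in sign to the tagged cells, and with either WT batch left out no RE passed. In the WT time course no RE of the window passed at 3 h or at 24 h by edgeR (0% of all REs), where 5 and 3 had an unadjusted p under 0.05 and DESeq2 called 0. RE+502 stood at 33.7 and 22.9 CPM in WT vehicle, 36.6 and 22.4 CPM at 3 h and 33.8 and 20.8 CPM at 24 h.

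The effect of 500 nM differed between tagged and WT cells, by an interaction term with the replicate as block, for 36 REs at 48 h (10.8% of all REs), 14 of them lower in tagged cells (7.29%) and 22 higher (3.56%). With either WT batch left out fewer REs passed at 48 h, in fits with 1 WT sample per group. At 3 h it differed for 12 (5.2% of all), 11 lower (5.13%) and 1 higher (0.072%). At 24 h it differed for 17 (6.73% of all), 12 lower (6.28%) and 5 higher (0.45%). Of the 20 REs that fell in tagged cells at 48 h, 14 had such a difference in the same direction, and of the 46 that rose, 21 had. Both counts use the same tagged samples. RE+502 had a difference of -4.32 on the log2 scale, RE+451 of -4.42, RE+494 of -3.87 and RE+541 of -3.70. Among gains, RE-562 had 0.75 ± 0.15, RE+6 0.79 ± 0.14, RE-90 0.33 ± 0.10 and RE+258 0.91 ± 0.19. For the SOX9 start RE the difference was 0.13 ± 0.09 (edgeR adjusted p = 0.49), so its small gain in tagged cells was not shown to differ from WT cells, in which it stood at 39.9 and 33.9 CPM without and at 39.0 and 37.5 CPM with 500 nM.

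SOX9-tagged cells were also compared with WT cells without dTAGV-1, in 3 pairs of the same batch. Batches R4 and R5 gave 24-h vehicle samples, and batch R8 gave 48-h samples at 0 nM. The labels give a SOX9 level of 115% in WT and 100% in tagged cells of R8, and 100% in both for R4 and R5. Tag, clone and SOX9 level cannot be told apart here. In the window 3 REs were lower in tagged cells (0.429% of all REs) and 1 was higher (0.521%, or 0.95% in either direction). RE+53, in an exon of an unnamed noncoding RNA gene and an intron of SOX9-AS1, held 2.66 and 3.38 CPM in tagged and 5.00 and 6.71 CPM in WT vehicle samples (log2 difference -0.99 ± 0.13, edgeR adjusted p = 0.00055). RE+53 did not pass at 500 nM against 0 nM (-0.30 ± 0.13). RE+67 had a log2 difference of -0.49 ± 0.11 and RE+502 of -0.43 ± 0.10, and RE+229 was higher by 1.1 ± 0.21. DESeq2 called 1 RE of the window here, and with replicate S9CC47_R5 at 0 nM added edgeR called none.

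Other factors of the CNCC circuit were listed beside SOX9. Of the promoter REs of 9 such factors, 1 rose at 500 nM and none fell, against 10.2 and 13.9% of all REs. That was the homeobox gene MSX1, from 15.7 ± 6.72 to 20.0 ± 8.36 CPM (log2 fold change 0.37 ± 0.09, edgeR adjusted p = 0.0026). TWIST1, a bHLH factor of the neural crest, had 0.14 ± 0.06 and TFAP2A 0.00 ± 0.06. Of the promoter REs of the SOX9 relatives SOX5, SOX6, SOX8 and SOX10 none passed by edgeR (0 of 4, against 24.1% of all REs). Their log2 fold changes were 0.07, -0.01, -0.13 and -0.01. A promoter RE gives neither the other REs of a gene nor its transcript. In the paper SOX5 was among the genes whose expression was sensitive to SOX9 dosage.

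Across the 42 samples of the dose series, with batch means removed, the REs of the window whose log2 CPM followed the SOX9 start RE most closely were RE+258 (Pearson r = 0.78), RE-89 (0.72) and RE-102 (0.71), which all rose at 500 nM. The lowest correlations were those of RE+545 (-0.64), RE-1888 (-0.62) and RE+436 (-0.62). Among the protein-coding genes whose promoter RE was most like it were PLTP (0.92), CNOT8 (0.89), SINHCAF and STAM2 (0.88 each). These samples share differentiations and differ in dose, so the correlations are given as descriptions with no test.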

How the data were processed

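ATAC-seq was measured in 58 samples in 14 groups. The authors trimmed reads with skewer, aligned them to hg38 with Bowtie2 2.4.1, removed duplicates and reads of low mapping quality with SAMtools 1.10, called summits with MACS2 2.2.7.1, and merged reproducible summits into 1 set of REs, in which they deposited whole-number counts per sample with no normalization. A count table over fixed REs does not depend on peak calls in single samples, but an RE open in too few samples is missing from it. Spans of 501 bp were read as starts counted from 0 and are printed counted from 1. Genes are those of GENCODE release 44.

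Counts of all 151,457 REs were fitted with edgeR 4.0.16 (R 4.3.3, TMM, no filter on low counts, quasi-likelihood F test) and the differentiation batch as covariate, a design taken from the study's methods, where DESeq2 was used. P-values were adjusted by Benjamini-Hochberg over all REs with a threshold of 0.05, and standard errors came from the F statistic. CPM used TMM library sizes, and the likeness used log2(CPM + 0.1). Every column of the table was used. Fits were tested on simulated data.

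Groups were read from sample titles. In S9CC13_R14 the titles and concentration labels of 0 and 0.5 nM are swapped against each other, and the titles were used. Tagged R5 columns of the time course carry clone S9CC47 where the titles say S9CC13, and were matched by batch, treatment and time. The label gives WT time-course samples with dTAGV-1 a SOX9 level of 0.95% although they carry no tag, and it was not used. Same-replicate samples deviated together, with every pair's correlation above 0.1 (lowest 0.21 over 130,600 REs, other pairs -0.13 to -0.11 on average), so replicate numbers pair samples. All 134 pairs within groups differed by more than sampling noise (reduced chi-square 2.60 or more).

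The REs and lists were chosen with earlier results of these data known. REs named with full values were the SOX9 start RE, the most open and the smallest p in each enhancer cluster zone, the 5 largest changes each way at 500 nM, the 3 smallest p at 3 h, those passing at 1.6 nM, in WT cells or between genotypes, and the 3 most open, 20 in all. Alternatives were RLE normalization, edgeR's low-count filter, DESeq2 1.42.0, the replicate block, no block, all 42 dose samples in 1 fit, and each replicate left out. Sequence of the SOX9 start RE and a gene of the likeness list are not reported here.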

Additional observations from a re-analysis of the deposited data

Results flagged for a closer look

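Within the 40 groups of 4 to 10 samples checked (the named REs at 0 and 500 nM), a sample lay far from the others in 2. Replicate S9CC47_R5 at 500 nM held 0.906 CPM of RE+451 and 0.942 CPM of RE+541, the highest of its group in each. Chance gives about 1 such group in 20. Without that replicate the log2 fold changes at 500 nM were -4.12 for RE+451 (edgeR adjusted p = 5.3e-13) and -3.74 for RE+541 (edgeR adjusted p = 4.1e-12).

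The effect of 500 nM differed between SOX9-tagged and WT cells, by the interaction term, for 36 of 130 REs at 48 h (10.8% of all REs). The count was 12 at 3 h (5.2% of all REs) and 17 at 24 h (6.73%). With either WT batch left out fewer passed at 48 h, in fits with 1 WT sample per group. Among named REs at 48 h the difference in log2 fold change, tagged minus WT, was -4.42 for RE+451, -4.32 for RE+502, -3.87 for RE+494, -3.70 for RE+541 and -2.76 for RE+503. It was 1.77 for RE-220, 1.54 for RE+218, 1.07 for RE+292, 0.91 for RE+258 and 0.33 for RE-90.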

How the results depend on the processing

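Under RLE normalization and edgeR's low-count filter the counts of REs that passed stayed within 1.5 times those given, in all 14 comparisons. DESeq2 moved them at 1.6 nM (6), at 3 h (12), in WT cells at 48 h (0) and between genotypes without dTAGV-1 (1). Putting all 42 dose samples in 1 fit gave 0 at 1.6 nM, and adding S9CC47_R5 to the genotype comparison gave 0. The cause was not tested. With the replicate block 10 REs passed at 1.6 nM and 32 at 5 nM, and the block moved no other count by over 1.5 times. With no replicate block and no batch, 0 passed at 1.6 nM, 7 at 5 nM, 15 at 16 nM, 32 at 500 nM, 0 at 3 h (11 at an unadjusted p under 0.05), 2 at 24 h, 0 in WT cells at 48 h and 0 between genotypes. The tagged minus WT differences were then 7 at 48 h, 2 at 3 h and 2 at 24 h. No share of all REs is given beside the counts of these alternatives.

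With each replicate left out in turn, the count was 0 to 0 at 0.5 nM, 0 to 6 at 1.6 nM, 11 to 42 at 5 nM (42 without S9CC47_R6, 11 without S9CC47_R5 or S9CC47_R8), 41 to 64 at 16 nM, 55 to 71 at 500 nM, 10 to 14 at 3 h (10 without R4) and 9 to 24 at 24 h (9 without R4, 24 without R5). It was 0 to 0 in each WT comparison, 17 to 17 for the tagged minus WT differences at 48 h (17 with either WT batch left out), 8 to 11 at 3 h, 9 to 15 at 24 h (9 without tagged R4), and 3 to 11 between genotypes (11 without R4). At 1.6 nM the count was 0 without S9CC13_R10, S9CC13_R13, S9CC47_R5 or S9CC47_R8, 1 without S9CC13_R14, and 6 without S9CC13_R6 or S9CC47_R6. Where a group had 1 sample left, it was assumed to vary like the others. Of the named log2 fold changes at 500 nM under all alternatives, 247 kept direction and side of the threshold, 9 lost it (3 for RE-1353.6 with a replicate left out, and without the block RE-1353.6, RE-1466.4, RE-1255, RE-1003, RE-90 and the SOX9 start RE) and 1 gained it (RE+53, -0.36 without S9CC13_R6). The 3 that reversed never passed: RE+67 at -0.03 without S9CC13_R10 or S9CC13_R6 (range -0.03 to 0.08), and RE+229 at 0.10 without S9CC47_R6 (range -0.28 to 0.10).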
